A study of Mus musculus with 9 samples.

Results

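The 8 genes described here encode cell-surface molecules through which a macrophage gives T cells a costimulatory or an inhibitory signal. They are Cd80, Cd86 and Icosl, which encode costimulatory ligands, Cd274, Pdcd1lg2, Cd276 and Vsir, which encode checkpoint ligands of the same B7 family or close to it, and Havcr2, which encodes the checkpoint receptor TIM-3. They were chosen by name, as the rows whose Ensembl identifier maps to these symbols, and all 8 were found among the 55655 rows of each deposited table. The samples were bone marrow-derived macrophages (BMDMs) of wild-type C57BL/6 mice aged 6 to 8 weeks, grown for 7 days with 10 ng/mL M-CSF. M0 macrophages received nothing further. M1 macrophages were stimulated for 12 h with 100 ng/mL LPS and 20 ng/mL IFN-γ. M1 + PBM macrophages received the same stimulation with photobiomodulation (PBM), near-infrared light from an 808 nm laser at 6 mW/cm2 for 7 min. The light was given as the stimuli were added. The general schedule of the study was every 12 h, and RNA for sequencing was collected 12 h after PBM. The comparison of the last 2 groups addresses what the light does to classically activated macrophages, a cell state studied here for its toxicity to neurons after spinal cord injury. There were 3 libraries in each group. The study states that the RNA-seq experiment was repeated independently 3 times. It does not say whether the 3 libraries of a group came from separate mice or cultures, so p-values measure only the spread between these libraries.

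A T cell that meets its antigen needs a further signal to respond fully. CD80 and CD86 on the presenting cell give it by engaging CD28, and the same ligands engage the inhibitory receptor CTLA-4. ICOS ligand engages ICOS, a relative of CD28. PD-L1 and PD-L2, the products of Cd274 and Pdcd1lg2, engage PD-1 and restrain the T cell. VISTA, the product of Vsir, is an inhibitory molecule abundant on resting myeloid cells, and B7-H3, the product of Cd276, is a B7 relative with mostly inhibitory roles. TIM-3 also acts within myeloid cells. Interferon-γ induces PD-L1 through IRF1, and LPS raises CD80 and CD86 on antigen-presenting cells through NF-κB.

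Levels are in FPKM, fragments scaled to transcript length and to the mapped fragments of the library, which can be compared between genes because they are divided by length. Each library held an estimated 30880000 to 42080000 fragments. The summed FPKM of 8 macrophage markers was 6798 to 10341 in M0, 5499 to 8469 in M1 and 5637 to 7287 in M1 + PBM. The summed FPKM of 7 M1 genes (Nos2, Il6, Il1b, Il12b, Cxcl9, Cxcl10 and Tnf) was 1952 to 2080 in M1 and 896 to 1498 in M1 + PBM, against 15.4 to 281 in M0. A pair of libraries stood apart. M0 replicate 3 held Tnf at 233 FPKM, against 16.9 and 14.9 in the other M0 libraries, and 5 stromal genes summing to 187 FPKM, against 6.86 and 5.48. M1 replicate 2 was the only library with Alb (9.01 FPKM) or Apoa1 (1.21 FPKM), genes of hepatocytes, and it held Chil3 at 9.69 FPKM, against at most 0.0502 FPKM in the other 8 libraries. Results that rest on these libraries are given with and without them. Markers of T cells summed to 1.36 to 6.05 FPKM and those of B cells to at most 0.753 FPKM in every library, and Flt3, S100a9 and Ly6g were at 0 throughout. Neutrophil markers summed to 1.44 to 2.39 FPKM in M0, 8.94 to 28.1 in M1 and 6.44 to 15.0 in M1 + PBM, and 4 M2 markers to 25.6 to 57.4, 5.19 to 24.6 and 10.9 to 12.6 FPKM. The part of these in the results below was not tested.

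In resting macrophages, Vsir and Cd274 were the most abundant of the 8 transcripts, and after stimulation Cd274 outweighed the other 7 together. Vsir measured 33.6, 38.5 and 15.9 FPKM in the 3 M0 libraries, a mean of 29.4 ± 11.9 (SD, n = 3). Cd274 measured 17.5, 26.2 and 18.7 FPKM there (20.8 ± 4.75, SD, n = 3). Vsir and Cd274 overlapped in M0, so their order is not settled by these libraries. Havcr2 followed at 10.6 ± 3.41 FPKM (SD, n = 3), below every Cd274 value. Icosl, Cd276 and Cd80 came next with overlapping values, at means of 3.88, 3.63 and 1.77 FPKM, then Cd86 at 0.994 and Pdcd1lg2 at 0.0904 FPKM. In M1 the order was Cd274, Cd86, Icosl, Vsir, Cd80, Havcr2, Pdcd1lg2 and Cd276. Neighbours did not overlap between Cd274 and Cd86, between Vsir and Cd80, and between Cd80 and Havcr2, and overlapped elsewhere in that order. In M1 + PBM, Vsir stood second, and its values overlapped those of Cd86, which overlapped those of Icosl.

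**Figure D1:**
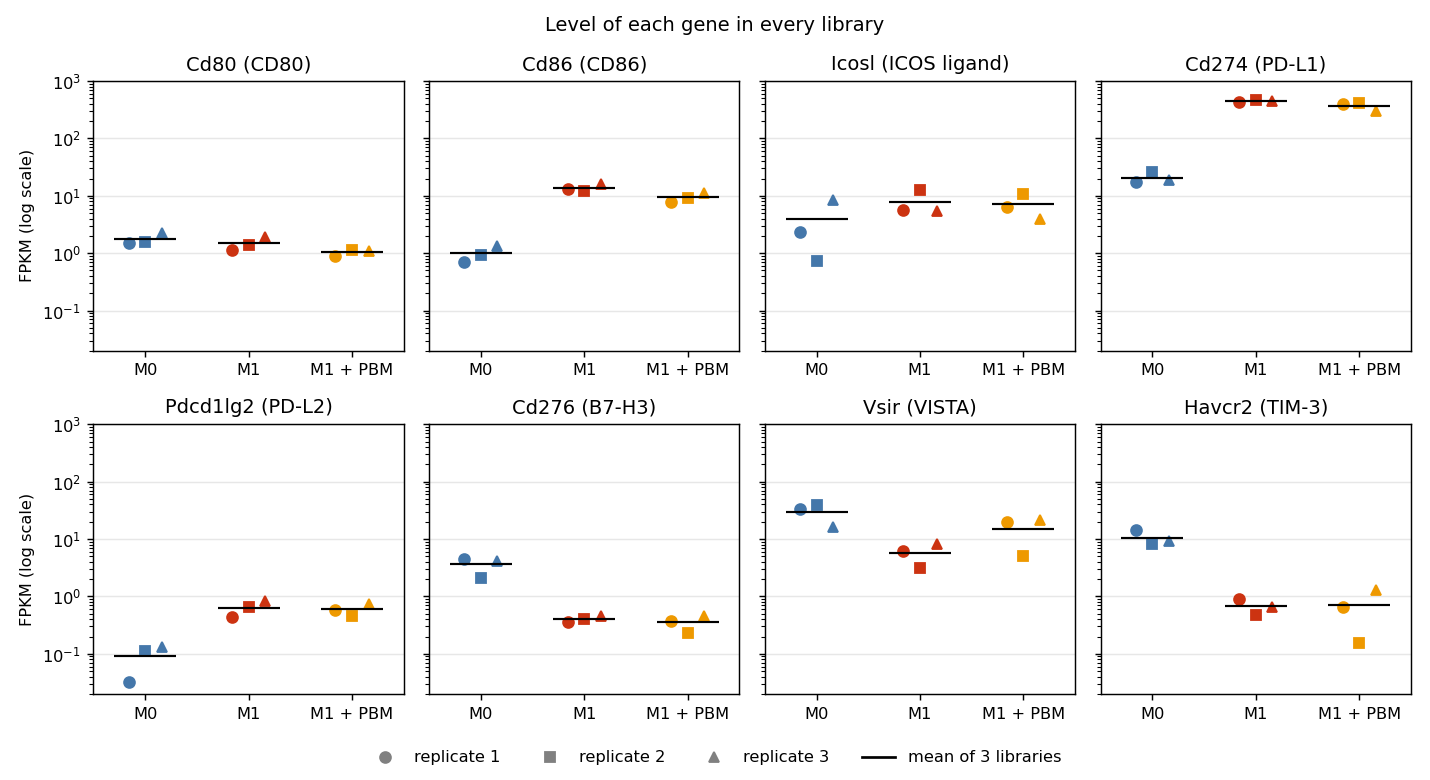
FPKM of the 8 genes on a log scale, one panel per gene, with one point per library (shape marks the replicate number) and a line at the mean of 3 libraries. Cd86 and Cd274 lie higher in all 6 stimulated libraries than in M0, Cd276 and Havcr2 lie lower, and Vsir in M1 + PBM spreads from 4.97 to 21.1 FPKM across the range between M1 and M0.

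The summed FPKM of the 8 genes was 60.2 to 78.3 in M0, 457 to 492 in M1 and 342 to 435 in M1 + PBM. Cd274 made up 23.4% to 33.5% of that sum in M0 and 93.0% to 93.9% in M1. In M1 + PBM its share was 91.5%, 93.7% and 88.4%. The Vsir share was 26.5% to 49.2% in M0, 0.625% to 1.71% in M1 and 1.14% to 6.17% in M1 + PBM.

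**Figure D2:**
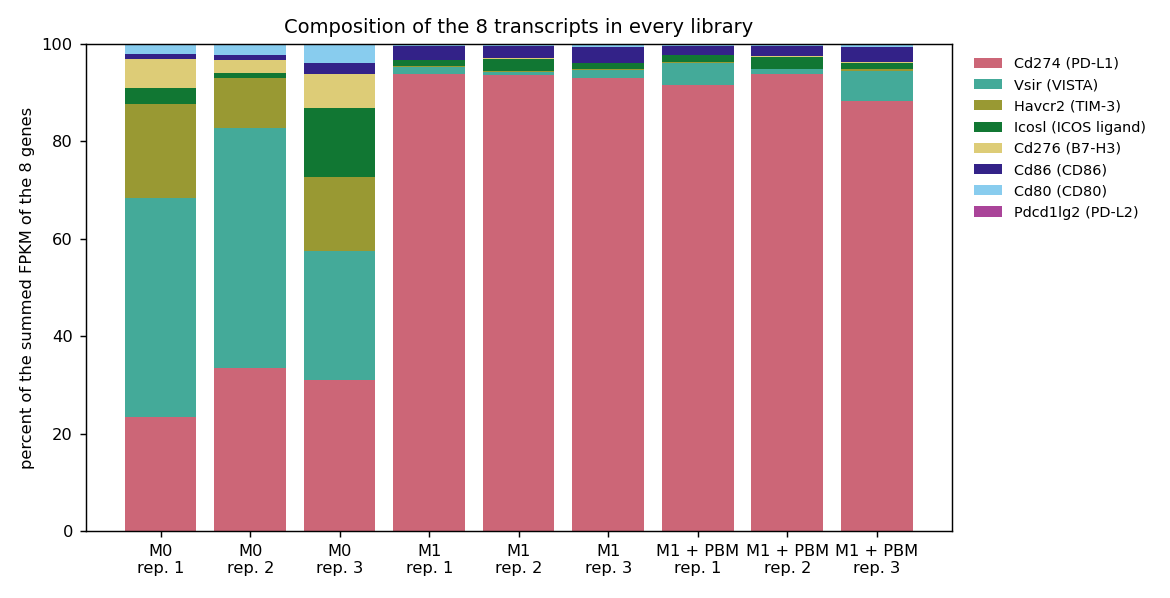
Stacked bars of the share of each gene in the summed FPKM of the 8 genes, in percent, one bar for each of the 9 libraries. Cd274 fills at least 88.4% of every stimulated bar and at most 33.5% of an M0 bar, where Vsir and Havcr2 take much of the rest.

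The question of what LPS and IFN-γ did to these genes can be described but not tested, because M0 stands in a table of its own and the 2 tables may have been normalized separately. The median gene of the 13915 rows compared was lower by 0.34 in M1 and by 0.27 in M1 + PBM on the log2(FPKM + 1) scale. Differences are therefore also given after median-of-ratios scaling, which moved those medians to 0.04 in both comparisons. A gene counted as higher or lower when the 3 libraries of one group lay beyond the 3 of the other and the means differed by at least 1 on that scale. Of the 8 genes, 2 were higher in M1 than in M0 (Cd86 and Cd274), where 7.81% of all rows were, and 3 were lower (Cd276, Vsir and Havcr2), where 13.7% of all rows were. In M1 + PBM, 2 were higher than M0 (again Cd86 and Cd274), against 7.13% of all rows, and 2 were lower (Cd276 and Havcr2), against 10.3%. Both comparisons used the same M0 libraries. In bulk samples, fewer cells that carry a transcript and less of it per cell cannot be told apart.

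Among the costimulatory ligands, Cd86 showed the large difference. Cd86 (ENSMUSG00000022901, chr16:36603869-36666081 on the minus strand of GRCm38) measured 0.715, 0.917 and 1.35 FPKM in M0. It measured 13.0, 12.4 and 15.9 FPKM in M1, all above every M0 library, a mean 13.8-fold higher. The mean difference was 2.89 on the log2(FPKM + 1) scale, 3.22 after scaling and 3.02 without M0 replicate 3.

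Cd80 (ENSMUSG00000075122, chr16:38455561-38496335, plus strand), which lies 1789 kb from Cd86 with 25 coding genes between them, behaved otherwise. It measured 1.48, 1.58 and 2.24 FPKM in M0 and 1.12, 1.40 and 1.92 FPKM in M1. These groups overlapped, and the difference of -0.16 in log2(FPKM + 1) turned to 0.15 after scaling, so no direction can be given for Cd80. The 3 M1 + PBM libraries measured 0.901, 1.14 and 1.11 FPKM, below each M0 library, with a difference of -0.43 in log2(FPKM + 1) that was -0.19 after scaling.

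Icosl (ENSMUSG00000000732, chr10:78069302-78083913, plus strand) varied more within groups than between them. Its values were 2.38, 0.738 and 8.53 FPKM in M0, 5.76, 12.6 and 5.36 FPKM in M1, and 6.42, 10.9 and 4.01 FPKM in M1 + PBM. M0 replicate 3 alone placed M0 within the range of the stimulated groups. Without it, all 6 stimulated libraries lay above M0, and the M1 minus M0 difference in log2(FPKM + 1) was 1.79 in place of 1.13.

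Among the checkpoint ligands, Cd274 (ENSMUSG00000016496, chr19:29367455-29388095, plus strand) had the largest difference of the 8 genes between M1 and M0. Its 3 M1 libraries measured 429, 460 and 446 FPKM against 17.5 to 26.2 FPKM in M0. The mean was 21.4-fold higher, a difference of 4.38 in log2(FPKM + 1), or 4.87 after scaling. An annotated antisense transcript, AC119228.1, overlaps Cd274. It measured 0.231 to 0.273 FPKM in M0 and 3.04 to 3.31 FPKM in M1. The libraries were strand-specific, and whether fragments were assigned by strand is not given in the sources used here.

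Pdcd1lg2 (ENSMUSG00000016498, chr19:29410919-29471161, plus strand) lies 22.8 kb beyond Cd274 with no coding gene between them, yet its level stayed under 1 FPKM. It measured 0.0321, 0.110 and 0.129 FPKM in M0 and 0.432, 0.663 and 0.818 FPKM in M1. The M1 values were all above the M0 values, and their mean was 7.05-fold higher. The difference on the log2(FPKM + 1) scale, which shrinks the changes of low genes, was 0.58. At most 7.73 fragments stood behind a Pdcd1lg2 value in M0 and at most 44.4 in M1. The antisense transcript A930007I19Rik, which overlaps the 3′ part of Pdcd1lg2, measured 1.90 to 2.40 FPKM in M1, above Pdcd1lg2 itself, so the Pdcd1lg2 values are uncertain.

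Cd276, Vsir and Havcr2 were each lower in M1 than in M0. Cd276 (ENSMUSG00000035914, chr9:58524298-58555437, minus strand) measured 4.57, 2.12 and 4.21 FPKM in M0 and 0.362, 0.403 and 0.462 FPKM in M1. Its M0 mean was 8.88-fold higher, and the M1 minus M0 difference was -1.67 in log2(FPKM + 1) and -1.38 after scaling. In M1 + PBM it measured 0.378, 0.233 and 0.454 FPKM, 1 value below the M1 range and the others within it.

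Havcr2 (ENSMUSG00000020399, chr11:46454935-46481255, plus strand) measured 14.4, 8.08 and 9.14 FPKM in M0 and 0.911, 0.468 and 0.653 FPKM in M1. The M0 mean was 15.6-fold higher, with a log2(FPKM + 1) difference of -2.75 that was -2.39 after scaling. In M1 + PBM it measured 0.667, 0.153 and 1.29 FPKM, so the lowest and the highest of the 6 stimulated values were both in that group.

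Vsir (ENSMUSG00000020101, chr10:60346851-60372684, plus strand) measured 6.09, 3.07 and 8.21 FPKM in M1, all below the lowest M0 value of 15.9. The M0 mean was 5.07-fold higher, and the M1 minus M0 difference was -2.15 in log2(FPKM + 1), -1.68 after scaling and -2.52 without M0 replicate 3. In M1 + PBM it measured 19.5, 4.97 and 21.1 FPKM. Replicates 1 and 3 lay within the M0 range and replicate 2 within the M1 range, and the difference from M0 was -1.03, or -0.64 after scaling. Without M0 replicate 3, which sets the low end of the M0 range, all 3 M1 + PBM values lay below M0 and the difference was -1.41. Without M1 + PBM replicate 2 it was -0.42. Vsir lies inside Cdh23, which is annotated on the opposite strand. Cdh23 measured 0.335 to 0.582 FPKM in the 6 stimulated libraries, below every Vsir value.

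Dendritic cells carry several of these ligands as well. The sum of 8 dendritic cell markers was 20.2 to 89.8 FPKM in M0, 5.43 to 34.9 in M1 and 8.08 to 25.7 in M1 + PBM. Only 1 of the 8 markers, Itgax, reached 1 FPKM in any library, and Flt3 was at 0 in all 9 libraries. Their part in the levels of Vsir, Havcr2 and Cd276 was not tested.

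The promoters are shown because Cd274 on the one hand, and Vsir and Havcr2 on the other, differed in opposite directions between M0 and M1, while Cd80 gave no direction. Each is the 250 bases before the RefSeq gene start, 5′ to 3′ on the strand of the gene, from build GRCm38.p6. RefSeq windows were found for 7 of the 8 genes, not for Cd86. Capitals mark every match to one of 5 motifs on either strand.
Cd274, chr19:29367188-29367437, plus strand: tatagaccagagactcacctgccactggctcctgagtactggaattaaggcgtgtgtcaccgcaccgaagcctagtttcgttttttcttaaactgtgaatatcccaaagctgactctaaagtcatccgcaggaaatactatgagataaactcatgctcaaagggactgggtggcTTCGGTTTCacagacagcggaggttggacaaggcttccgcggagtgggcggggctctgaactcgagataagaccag
Cd80, chr16:38458683-38458932, plus strand: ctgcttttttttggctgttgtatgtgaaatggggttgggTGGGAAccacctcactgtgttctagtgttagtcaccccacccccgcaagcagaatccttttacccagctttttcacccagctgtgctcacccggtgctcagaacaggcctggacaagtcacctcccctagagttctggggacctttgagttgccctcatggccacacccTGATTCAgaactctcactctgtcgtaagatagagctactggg
Vsir, chr10:60346601-60346850, plus strand: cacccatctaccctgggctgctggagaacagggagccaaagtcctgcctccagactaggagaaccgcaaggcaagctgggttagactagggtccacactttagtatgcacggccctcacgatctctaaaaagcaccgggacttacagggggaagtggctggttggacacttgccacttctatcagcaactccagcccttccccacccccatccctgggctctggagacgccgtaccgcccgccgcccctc
Havcr2, chr11:46454681-46454930, plus strand: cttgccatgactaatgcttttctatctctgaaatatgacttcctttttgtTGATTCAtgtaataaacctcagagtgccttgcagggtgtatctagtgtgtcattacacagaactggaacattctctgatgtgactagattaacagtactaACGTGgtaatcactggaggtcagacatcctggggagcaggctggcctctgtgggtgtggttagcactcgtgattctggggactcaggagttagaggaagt

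The motifs searched were the IRF element GAAANNGAA, the NF-κB element GGGANTTTC, the AP-1 element TGANTCA, the hypoxia response core ACGTG and the RBPJ element TGGGAA. The Cd274 window held 1 match, to the IRF element on the minus strand, read as TTCGGTTTC and beginning 76 bases before the start. That motif is in 7.13% of 32841 promoters of the same length. The Cd80 window held an RBPJ match 211 bases and an AP-1 match 42 bases before the start, motifs found in 21.6% and 6.75% of promoters. The Havcr2 window held an AP-1 match at 200 bases and a hypoxia response core at 100 bases, the latter in 16.6% of promoters. None of the 5 motifs was in the windows of Vsir, Pdcd1lg2, Icosl or Cd276, and no match overlapped another. The Cd276 window, and part of the Icosl window, lie in annotated exons. The start used for Cd276 is 404 bases from the nearest GENCODE start. The Cd80 window, chr16:38458683-38458932, lies within the annotated gene, whose outermost start is at 38455561. It precedes an internal transcript start that GENCODE also lists, so its matches are not at the outer end of Cd80. The NF-κB letters, in 0.941% of promoters, were in none of the 7 windows. Only those letters were searched, so an NF-κB element written otherwise would have been missed. These windows are short, and a match is a run of letters, not a binding site.

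The comparison the study was built on, M1 + PBM against M1, was tested with limma on log2(FPKM + 1) over 12238 rows, those that reached 1 FPKM in 3 or more of the 6 libraries. Of the 8 genes, 5 were in that fit, and 4 of these had lower means in M1 + PBM. None of the 5 passed the thresholds of the study, an unadjusted p of at most 0.05 with a log2 fold change of at least 1 in size, which 0.261% of all rows passed. Cd86 alone had an unadjusted p of at most 0.05, as did 4.44% of all rows (177 lower and 366 higher, or 283 lower and 234 higher after median-of-ratios scaling). None had a Benjamini-Hochberg adjusted p under 0.05, which 0.00817% of rows did. The M1 + PBM libraries lay wholly below the M1 libraries for 2 of the 8 genes, Cd86 and Cd274, and wholly above for none. Over all 12238 rows, the groups did not overlap in either direction for 1350. The M1 + PBM libraries were wholly below for 309 of these (2.52% of all rows), so separation upward was the more common in FPKM as deposited. These counts were made without median-of-ratios scaling, under which the median fold change of all rows was -0.005. The median log2 fold change of the 5 genes was -0.27, beside 0.06 over all rows tested. The replicate numbers were taken as pairs from the correlation of same-numbered libraries in these same data, not from the labels. The fit with the replicate number as a block is therefore given where it changes a call. Unadjusted p-values of limma serve here only as the call rule of the study, and the p-values printed are adjusted or come from the 2-sided exact permutation test of 3 against 3 libraries, which cannot go below 0.1.

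Cd86 was lower with PBM in each of the 3 replicate numbers. The M1 + PBM libraries measured 7.95, 9.34 and 11.1 FPKM against 13.0, 12.4 and 15.9 FPKM in M1, and the highest of the first lay below the lowest of the second. The mean was 1.45-fold higher in M1. The log2 fold change was -0.50 (SE 0.151, 95% interval -0.86 to -0.14; limma adjusted p = 0.90). The exact permutation test gave p = 0.1. With the block the SE was 0.0907 and the adjusted p was 0.58. Leaving out M1 + PBM replicate 1 brought the fold change to -0.39, no longer past the unadjusted threshold. Leaving out M1 replicate 2, the library with hepatocyte genes, gave -0.57, which passed it. The M1 + PBM levels of Cd86 remained 9.52-fold above the M0 mean.

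Cd274 differed in the same direction by less. Its M1 + PBM libraries measured 393, 408 and 302 FPKM, all under the lowest M1 value of 429. The log2 fold change was -0.29 (SE 0.142, 95% interval -0.63 to 0.05; limma adjusted p = 0.90), and the exact permutation test gave p = 0.1. Replicate 3 showed the greatest decrease, by 0.56 in log2(FPKM + 1), against 0.13 and 0.18 for the others. Without M1 + PBM replicate 3 the fold change was -0.15. In M1 + PBM the mean was still 17.7-fold that of M0.

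Cd80 was lower with PBM in each replicate number, but the groups overlapped. Its log2 fold change was -0.27 (SE 0.141, 95% interval -0.60 to 0.07; limma adjusted p = 0.90), with an exact permutation p = 0.2. Without M1 replicate 1, the lowest M1 library, it was -0.37 and passed the unadjusted threshold, and without M1 replicate 3, the highest, it was -0.14. For Icosl the fold change was -0.14 with an interval from -1.11 to 0.84 (exact permutation p = 0.8), too wide to say whether the groups differ. It turned to 0.22 without M1 replicate 2 and to 0.17 without M1 + PBM replicate 3.

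Vsir was the 1 gene of the 5 with a higher mean in M1 + PBM, 2.63-fold that of M1. It was higher in each replicate number, by 1.53, 0.55 and 1.26 in log2(FPKM + 1), yet M1 + PBM replicate 2 at 4.97 FPKM lay within the M1 range. The log2 fold change was 1.12 (SE 0.559, 95% interval -0.23 to 2.46; limma adjusted p = 0.90), with an exact permutation p = 0.3. With the replicate number as a block, the SE fell to 0.204, the interval was 0.58 to 1.65 and Vsir passed the thresholds of the study, with an adjusted p of 0.58. It also passed them with no block when M1 + PBM replicate 2 was left out, with a fold change of 1.73. Without M1 replicate 2 the fold change was 0.79, under the thresholds.

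Pdcd1lg2, Cd276 and Havcr2 were below the FPKM minimum and entered only a fit with no minimum. Their log2 fold changes there were -0.04 (95% interval -0.36 to 0.28), -0.06 (-0.26 to 0.14) and -0.02 (-0.69 to 0.64). Exact permutation tests gave p = 0.8, 0.6 and 1. Low values are compressed on this scale by the added 1 FPKM. The Pdcd1lg2 values in M1 + PBM, 0.579, 0.452 and 0.752 FPKM, lay within the M1 range of 0.432 to 0.818. Between 17.5 and 130 fragments stood behind a Havcr2 value in M1 + PBM.

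**Figure D3:**
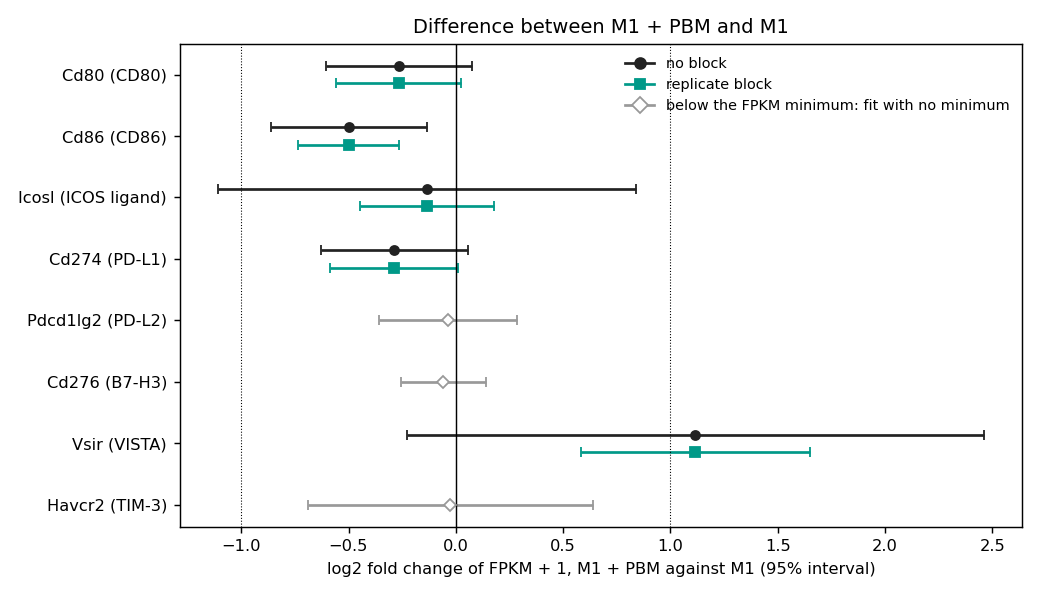
Log2 fold change of FPKM + 1 between M1 + PBM and M1 for each gene, with 95% intervals from limma, without (circles) and with (squares) the replicate number as a block, and from a fit with no FPKM minimum (diamonds) for the 3 genes below it; dotted lines mark a fold change of 1 in size. The Cd86 interval lies below 0 in both fits, and that of Vsir lies above 0 only with the block.

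Icosl and Vsir ran in opposite order across the libraries of each group. In M0, M1 and M1 + PBM alike, the library with the most Icosl had the least Vsir, and the one with the least Icosl had the most Vsir. Replicate 2 had the most Icosl and the least Vsir in both stimulated groups (12.6 and 3.07 FPKM in M1, 10.9 and 4.97 FPKM in M1 + PBM), while in M0 that library was replicate 3. M0 replicate 3 and M1 replicate 2 are the libraries that stood apart. Without them, Icosl was 2.38 and 0.738 FPKM in M0 (Vsir 33.6 and 38.5) and 5.76 and 5.36 FPKM in M1 (Vsir 6.09 and 8.21). The order was still reversed, but so few libraries can only show the same or the reversed order. Of the 28 pairs of the 8 genes, 2 were reversed in all 3 groups, Icosl with Vsir and Cd274 with Havcr2, and 0 pairs kept the same order in all 3. The share of such pairs among all genes was not computed. Same-numbered M1 and M1 + PBM libraries were taken as paired, so the orders in these groups are not independent. The sum of the dendritic cell markers, 77.0% to 99.6% of it Itgax, had the order of Icosl in M1 (12.8, 34.9 and 5.43 FPKM) and in M1 + PBM (13.7, 25.7 and 8.08 FPKM), but not in M0. Its part in the pattern was not tested. This pair was picked after its values were seen.

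**Figure D4:**
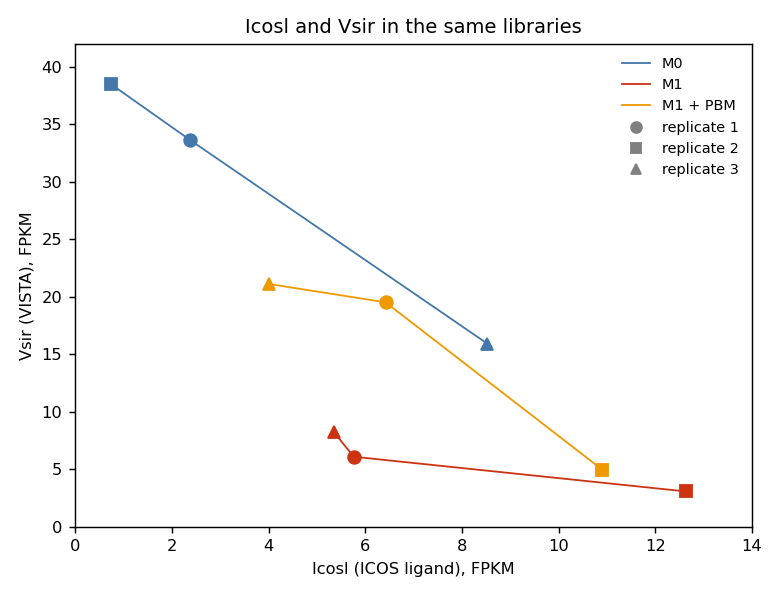
Vsir against Icosl, both in FPKM, in the 9 libraries, with lines joining the libraries of a group in order of Icosl and shapes marking the replicate number. Each line falls from left to right, and the M1 + PBM libraries with 19.5 and 21.1 FPKM of Vsir have the lower Icosl values of their group. The right-hand ends of the M0 and M1 lines are M0 replicate 3 and M1 replicate 2, the libraries that stood apart.

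The genes most like each member over the 6 M1 and M1 + PBM libraries were taken as the 2 with the smallest root mean square difference of centred log2(FPKM + 1). For Cd274 they were Ptpn2 (0.041) and Il15ra (0.050), which encode a tyrosine phosphatase and the alpha chain of the interleukin-15 receptor. Il15ra measured 17.4, 19.4 and 19.1 FPKM in M1 and 16.7, 18.6 and 13.0 FPKM in M1 + PBM. For Cd86 they were Vcan (0.028), which encodes the proteoglycan versican, and Mir6953 (0.087), a microRNA locus inside Grina whose reads may belong to that gene. Vcan measured 12.5, 11.4 and 14.6 FPKM in M1 and 7.39, 8.50 and 9.92 FPKM in M1 + PBM, close to Cd86 in level as well as in pattern. For Cd80 they were the transcription factor genes Jund (0.031) and Klf16 (0.043). For Icosl they were Gm18899 (0.076) and Fdft1 (0.097), the gene of squalene synthase. For Vsir the nearest genes lay farther off, Ccr3 (0.240), a chemokine receptor gene, and Gm47302 (0.300). Vsir itself also varied more, and this measure can grow with the spread of the gene. The root mean square of its centred values was 0.899, against 0.197 (Cd80) to 0.510 (Icosl) for the others.

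Of 12 listed ligands of the TNF and SLAM families with CD40, 8 were tested, 6 had lower means in M1 + PBM and 2 higher, and the median log2 fold change was -0.40 beside 0.06 for all rows. Slamf1, which encodes a self-binding receptor of activated leukocytes, measured 10.3, 7.29 and 15.1 FPKM in M1 and 3.64, 4.997 and 4.57 FPKM in M1 + PBM, and was the 1 gene of the list past the thresholds of the study (log2 fold change -1.10, SE 0.248; limma adjusted p = 0.90). Without M1 replicate 3 or M1 + PBM replicate 1 its fold change was -0.85 or -0.99, under the fold threshold. Tnfsf9, the gene of the 4-1BB ligand, had a fold change of -0.89 and passed the unadjusted threshold alone, a call lost with the replicate block, with no FPKM minimum or a higher one, without moderation of the variance, and without M1 replicate 1 or 3 or M1 + PBM replicate 1 or 3. Tnfsf15 had the largest value of the list, -1.17, with an exact permutation p = 0.3. Tnfsf15 measured 7.65, 13.6 and 1.32 FPKM in M1 + PBM, and without replicate 2 of that group its fold change was -1.73 and passed the thresholds of the study, while without replicate 3 it was -0.41. Against M0, described with no test, 4 of these 8 genes were higher in M1 (Tnfsf15, Cd40, Slamf1 and Slamf7), where 7.81% of all rows were. Lower was 1 of them (Cd84), where 13.7% of all rows were.

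Of 19 other inhibitory ligands and macrophage checkpoint receptors, 14 were tested, 9 with higher and 5 with lower means in M1 + PBM, a median of 0.08, and limma gave 0 of them an unadjusted p of at most 0.05. The largest fold changes were those of Lair1, a collagen-binding inhibitory receptor (0.80, exact permutation p = 0.2), and Cd200r1, the receptor of CD200 (0.46, p = 0.4). Lair1 passed the unadjusted threshold with the replicate block. Without M1 replicate 2 the fold changes were 1.14 and 0.79, Lair1 past the thresholds of the study and Cd200r1 past the unadjusted threshold alone. Without M1 replicate 3 they were 0.40 and 0.094, neither past the unadjusted threshold. Like Vsir, both were lower in M1 (means of 6.03 and 7.78 FPKM) than in M0 (18.3 and 24.3 FPKM).

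Of 13 receptors through which T cells read these ligands, 12 were below the FPKM minimum. Lag3, the exception, measured 1.02, 1.54 and 1.66 FPKM in M1 and 2.37, 1.94 and 1.97 FPKM in M1 + PBM, and its log2 fold change was 0.37. Its exact permutation test gave p = 0.1, and it passed the unadjusted threshold without the block and not with it. It is also expressed outside T cells, and the T cell markers summed to 1.51 to 2.34 FPKM in M1 + PBM and 1.36 to 2.64 FPKM in M1. The call was also lost without M1 replicate 1, M1 + PBM replicate 1 or M1 + PBM replicate 3, at fold changes of 0.25, 0.31 and 0.40, after median-of-ratios scaling or quantile normalization, at 0.32 in both, and without moderation of the variance. Against M0, Cd28, which encodes the receptor of CD80 and CD86, was lower in both stimulated groups. It measured 11.8 to 22.9 FPKM in M0, 0.204 to 0.742 in M1 and 0.344 to 0.731 in M1 + PBM. Lag3 was higher in both stimulated groups than in M0.

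All 18 listed genes of interferon-γ and NF-κB signalling were tested, 12 with lower and 6 with higher means in M1 + PBM and a median of -0.15. Hif1a, which encodes a transcription factor of the hypoxia response, measured 49.7, 45.5 and 44.2 FPKM in M1 and 20.5, 24.7 and 24.8 FPKM in M1 + PBM, a log2 fold change of -0.97 (SE 0.113; limma adjusted p = 0.38). Its size was just under the threshold of 1. It was past both thresholds after median-of-ratios scaling, at -1.05, and without M1 replicate 3 or M1 + PBM replicate 2 or 3, at -1.002, -1.01 and -1.01. Ifngr1, the gene of the ligand-binding chain of the interferon-γ receptor, was higher, with 0.58 (SE 0.122; adjusted p = 0.90), and like Hif1a passed the unadjusted threshold, as did Rela, the gene of NF-κB p65, with -0.43. Irf1, whose product carries the interferon-γ signal to Cd274, had a fold change of -0.10, with an exact permutation p = 0.7. It was 0.13 without M1 replicate 2 and -0.38, past the unadjusted threshold, without M1 replicate 3. Rela, Irf1, Tnfsf9 and Cd28 are named outside the rule for named genes.

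Of 11 regulators of the CD80, CD86 and PD-L1 proteins, 10 were tested, 9 with higher and 1 with a lower mean, all within a narrow range. The largest fold changes were 0.18 for B4galt1, a galactosyltransferase gene, and 0.14 for Cmtm4, a stabilizer of PD-L1. By limma, 0 of them had an unadjusted p of at most 0.05. B4galt1 passed that threshold without M1 + PBM replicate 2, at 0.33, and was at 0.032 without M1 + PBM replicate 3.

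**Figure D5:**
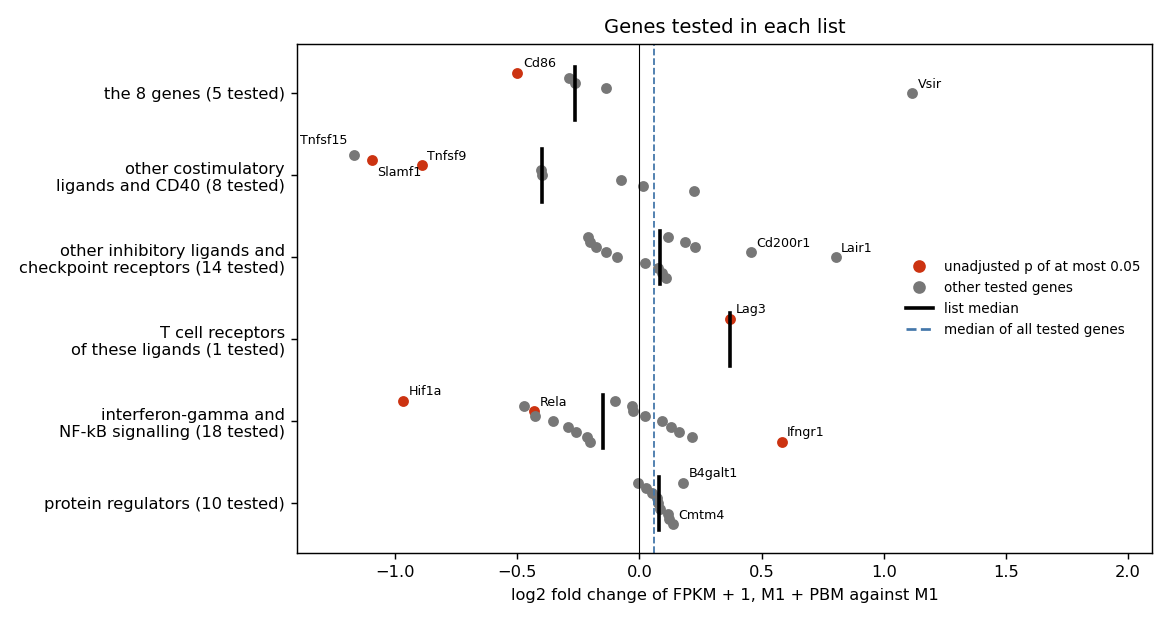
Log2 fold change of FPKM + 1 between M1 + PBM and M1 for the tested genes of each list, one point per gene, with the list median as a black bar and the median of all tested rows (0.06) as a dashed line; red points have an unadjusted limma p of at most 0.05. The medians of the 8 genes and of the other costimulatory genes lie left of the dashed line, at -0.27 and -0.40.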

How the data were processed

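The RNA-seq series holds 9 libraries in the groups M0, M1 and M1 + PBM, assigned by their labels. The authors deposited FPKM in 2 tables, 1 for M0 and 1 for the other 6 libraries. Cufflinks methods are named for the expression values, and the submitters' processing notes name Bowtie 0.12.2 and genome build mm9. The annotation and filters are not given in the sources used here. Symbols, positions and overlaps came from GENCODE M21 on GRCm38, whose identifiers gave 55154 of 55655 rows a symbol, and promoters from RefSeq on GRCm38.p6. They are positions of the reference, not of the alignments. The members and lists were chosen with earlier results of these data known. For 1 listed gene and 1 motif, results are not reported here.

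M1 + PBM and M1 were compared with limma 3.58.1 in R 4.3.3 (lmFit, eBayes with trend) on log2(FPKM + 1), for rows that reached 1 FPKM in 3 or more of the 6 libraries. The fit was tested on simulated data. Genes named beside the 8 were the 2 largest changes of each list, any past the thresholds, and the 2 nearest patterns of each member. Deviations from group means of same-numbered M1 and M1 + PBM libraries correlated with r of 0.157, 0.469 and 0.462, against -0.491 to 0.0328 for different numbers, so the numbers were taken as pairs. This pairing comes from the data, and the labels do not say what the numbers share.

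Depth was estimated from the steps of low FPKM values. Between 31.6% and 34.0% of them were whole multiples (within 0.05) of the value of 1 fragment, where even spacing gives 10%, so no reads were recovered and no count test was run. Fragment numbers per gene are upper estimates from the longest annotated transcript. Precision rests on 3 libraries per group.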

Additional observations from a re-analysis of the deposited data

How the results depend on the processing

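The alternatives were another pseudocount, other filters on low FPKM, other scalings, other variance models, the replicate block and leaving out each library in turn. Values for M1 + PBM against M1 were unchanged under them in 230 cases. The unadjusted threshold was passed in 9 cases and lost in 16, 3 values reversed and 1 moved by more than the replicate spread. Unchanged meant the same direction and side of the threshold for tested genes. For Pdcd1lg2, Cd276 and Havcr2 it meant only a shift within the replicate spread. Some of their values changed sign, as Havcr2 did at 0.23 without M1 + PBM replicate 2. Of the values against M0, 112 were within the replicate spread, 15 moved beyond it in the same direction and 1 reversed.

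With the replicate block, the number of the 8 genes past the thresholds of the study was 1 (Vsir) in place of 0, and the number at an unadjusted p of at most 0.05 was 2 in place of 1. Among the other genes whose fold change is given, the block changed the calls of Lair1, Lag3 and Tnfsf9, as given above, and of no other. Leaving out one library gave 0 to 1 genes past the thresholds, the 1 being Vsir without M1 + PBM replicate 2. It gave 0 to 2 genes at an unadjusted p of at most 0.05, with 0 left without M1 + PBM replicate 1. Over all rows, 32 passed the thresholds, 75 with a pseudocount of 0.1, 13 without moderation of the variance and 27 to 89 without one library. The highest counts were 89 without M1 + PBM replicate 2 and 69 without M1 replicate 2. The Icosl fold change ranged from -0.46 to 0.22 without one library and that of Irf1 from -0.38 to 0.13, and that of Cd80 between M1 and M0 turned to 0.15 after median-of-ratios scaling. The cause was not tested.

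The numbers of genes whose groups do not overlap were also recomputed without each library, a choice made after seeing the data. Fewer libraries separate more easily, so the share of all rows is given beside each. M1 + PBM and M1 did not overlap in either direction for 2 to 4 genes, with 4 without M1 + PBM replicate 2 (25.4% of all rows) and 3 without M1 replicate 1 (16.4%), against 2 with all libraries (1350 of 12238 rows). Against M0, the genes that did not overlap and whose means differed by at least 1 were 5 to 6 for M1 and 4 to 6 for M1 + PBM, in both cases 6 without M0 replicate 3 (23.4% and 19.3% of all rows, against 21.5% and 17.4% with all libraries). Low values limit Pdcd1lg2, Cd276 and Havcr2 in the stimulated groups, and 3 libraries per group limit every p.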
